A study of Homo sapiens with 13 samples.

Results

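The genes described here encode 9 transcription factors of the basic leucine zipper (bZIP) class: ATF3, the small MAF proteins MAFF, MAFG and MAFK, BATF, and the C/EBP factors CEBPA, CEBPB, CEBPD and CEBPG. They were chosen by gene name, through the platform's probe annotation, and the brightest probe set of a gene, by its mean over the arrays, stands for it. Of the 9 genes, 8 had a probe set carrying their symbol and all 8 passed the filter on dim genes, among 7731 genes tested in all. MAFK had no probe set assigned to it in the annotation used here and was not analysed.

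A bZIP protein binds DNA as a dimer, gripping it with a basic region while a leucine zipper holds the partners together. Pairing sets what the dimer recognises: AP-1 sites, cyclic AMP response elements (CRE), MAF recognition elements or C/EBP sites. Several of these proteins lack a transactivation domain of their own, among them the small MAF proteins, BATF and CEBPG, and act through the partner they pair with. ATF3 is known as a fast response gene of stressed or stimulated cells, and CEBPB and CEBPD as regulators of inflammatory, acute phase and differentiation genes. In mouse mammary epithelial cells CEBPD is known for its induction on growth arrest.

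MCF10A cells, a spontaneously immortalized line of normal human mammary epithelium, were stimulated with EGF alone, or with a serum mixture (horse serum with cholera toxin, insulin and hydrocortisone), or were left unstimulated. All of them had been deprived of serum for 24 h beforehand. There was 1 array for each stimulus at 20, 40, 60, 120, 240 and 480 min and 1 unstimulated array, 13 in all, so no condition had a replicate, and all cells came from 1 cell line. The serum mixture is called serum below; its hydrocortisone is a glucocorticoid and its cholera toxin raises cyclic AMP. The arrays of 20, 40 and 60 min are called early and those of 120, 240 and 480 min late.

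Signals are given as deposited, on a linear scale, and differences on the scale of log2(signal + 6) after quantile normalization, which understates the changes of dim genes. Tests used limma with p-values adjusted over the 7731 genes, are two-sided, and call a gene at an adjusted p under 0.05; SE is the standard error. With no replicate arrays, the p-values measure only the spread between arrays of different times and stimuli, and 13 arrays allow only limited precision. Of the cell type markers, all 8 measured ones of basal mammary epithelium, such as KRT5, KRT14 and ITGB4, passed the filter, with median signals of 1982.2 to 6203.6. Of the others, 4 of 7 luminal, 2 of 5 leukocyte, 0 of 3 endothelial and 3 of 5 fibroblast markers passed it, and the leukocyte marker PTPRC had a median signal of 7.2. The serum array of 20 min had fewer dim probe sets than the other 12 (33.3% under a signal of 20, against 36.7% to 40%). For the EGF array of 20 min the title says 20 min and the description 40 min; the title was used.

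Promoter letters are shown for ATF3 and MAFF, the members with the largest changes from the unstimulated array, and for CEBPB, which separated the stimuli at every time. RefSeq windows (GRCh38.p14) were found for 7 of the 9 genes, 11 windows in all, and the 250 bases before the start were searched. The capitals mark a CRE (TGACGTCA), an AP-1 site (TGANTCA), a C/EBP site (TTGCNNAA), an amino acid response element of the kind C/EBP and ATF dimers bind (TGATGNAA) or a CArG box, on both strands, or a TATA box (TATAAA) on the gene's strand. These motifs stood in 1.65%, 6.57%, 9.05%, 3.14%, 1.16% and 6.8% of all 35114 windows of that length.
ATF3, chr1:212565157-212565406, plus strand: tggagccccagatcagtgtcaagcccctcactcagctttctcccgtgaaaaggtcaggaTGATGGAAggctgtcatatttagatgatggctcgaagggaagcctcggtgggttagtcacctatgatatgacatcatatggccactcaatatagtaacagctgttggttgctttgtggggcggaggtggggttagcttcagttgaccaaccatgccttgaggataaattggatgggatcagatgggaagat
MAFF, chr22:38201744-38201993, plus strand: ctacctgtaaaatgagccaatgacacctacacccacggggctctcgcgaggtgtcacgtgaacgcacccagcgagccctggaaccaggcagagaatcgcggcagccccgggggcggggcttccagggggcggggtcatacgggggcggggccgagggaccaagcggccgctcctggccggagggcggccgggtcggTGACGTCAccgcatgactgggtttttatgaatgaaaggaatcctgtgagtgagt
CEBPB, chr20:50190580-50190829, plus strand: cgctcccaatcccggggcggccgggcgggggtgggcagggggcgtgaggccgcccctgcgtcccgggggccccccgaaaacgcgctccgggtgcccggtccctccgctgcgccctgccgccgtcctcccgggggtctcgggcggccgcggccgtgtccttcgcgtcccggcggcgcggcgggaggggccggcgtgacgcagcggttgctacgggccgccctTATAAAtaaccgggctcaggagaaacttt
In the MAFF window shown a CRE lay 54 to 47 bases before the start, and in the ATF3 window shown an amino acid response element 191 to 184 bases before it. The CEBPB window shown held a TATA box 29 to 24 bases before the start. An amino acid response element also stood in 1 of the 2 CEBPG windows, 42 to 35 bases before the start. The TATA box letters stood 30 to 25 bases before the start in the CEBPA window. In the other ATF3 window they stood farther off, 230 to 225 bases before it. The BATF and MAFG windows held none of the letters searched, and neither did the other window of MAFF, of CEBPB or of CEBPG. A match is a description of the letters only, and which start these cells use was not tested.

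ATF3 had the widest swing of the 8 genes, and its signal was higher after serum than after EGF at every time but 480 min. Its signal was 21.7 on the unstimulated array and 27.7, 74.8, 48.9, 38.2, 13 and 20.5 at 20, 40, 60, 120, 240 and 480 min after EGF. After serum it was 177.5, 449.8, 286.4, 79.8, 24.4 and 13 at the same times. Both courses were highest at 40 min and back near the unstimulated level by 240 min. Whether the lowest of these signals lay above background was not tested, and folds against them depend on the offset of 6. The 40 min arrays stood 3.05-fold above the unstimulated array after EGF and 17.3-fold after serum. Among the 7731 genes that difference ranked 26 after EGF and 3 after serum, and ATF3 ranked 4 at 20 min and 5 at 60 min after serum. Its values spanned 4.55 log2 units over the 13 arrays, a span reached by 4 genes with ATF3 itself among them, against a median of 0.83.

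In the late arrays ATF3 was lower than in the early ones over both stimuli (n = 6 against 6), by 1.88 on the log2 scale or 3.69-fold (SE 0.39, limma adjusted p = 0.0293). Within serum it fell 7.62-fold (log2 difference -2.93, SE 0.55, adjusted p = 0.0347), and its late arrays lay below its early ones without overlap. Within EGF the difference was -0.84 (SE 0.55, adjusted p = 0.496) and the arrays overlapped. The difference between the stimuli in this change was 2.09 (SE 0.39) and did not pass (adjusted p = 0.209). The summed signal of the 5 fibroblast markers was also lower late than early, at 264.5 to 331.8 against 422.4 to 507.9 in serum and 197.5 to 330.5 against 377.2 to 407 in EGF. None of them passed a test, 2 were under the filter, and of the 3 tested 1 was higher late. Late minus early the luminal marker ERBB3 fell (-0.58, adjusted p = 0.0337) and the basal marker SFN rose (0.37, adjusted p = 0.0201). SFN also rose within serum (0.53, adjusted p = 0.0301). On omission of 1 array these calls were lost in 10, 3 and 6 of 12 cases. Of the tested markers, 2 of 4 luminal and 5 of 8 basal ones were higher late over both stimuli. The summed signal of the luminal markers overlapped between late and early arrays in both stimuli. The summed signal of the 8 basal markers was higher late in serum, at 37867.6 to 39052.4 against 28381.5 to 34080.2 early. In EGF it was lower late, at 29897.5 to 36018.5 against 36356.9 to 38701.3 early, and 2 of the 8 were higher late. The part of these markers in the ATF3 and CEBPD values was not tested. In RNA of whole cultures, a change in the share of cells that express ATF3 and a change per cell cannot be told apart.

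Both ATF3 calls rested on single arrays. The call over both stimuli was lost when any 1 of 7 arrays was left out: EGF at 40 min (-1.73, adjusted p = 0.0742), EGF at 60 min (-1.87, 0.0504), EGF at 240 min (-1.75, 0.0686), and EGF at 480 min (-1.87, 0.0661), as well as serum at 40 min (-1.72, 0.0734), 60 min (-1.88, 0.0574) and 240 min (-1.82, 0.0692). Within serum it was lost without serum at 20 min (-3.27, 0.0529), 40 min (-2.60, 0.117), 60 min (-2.92, 0.0815), 240 min (-2.81, 0.0964) or 480 min (-2.44, 0.079), and without EGF at 60 min (-2.93, 0.0509) or 240 min (-2.93, 0.0523). The differences themselves ran from -2.19 to -1.64 over both stimuli and from -3.53 to -2.44 within serum. Omitting both arrays of 20 min ended the serum call as well (-3.27, 0.0705). The serum fold was 5.28 with an offset of 24 and 9.25 with no offset.

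Set against serum at the same time, EGF gave 5.39-fold less ATF3 at 20 min, 5.67-fold less at 40 min and 5.39-fold less at 60 min. The gap was 1.99-fold at 120 min and 1.59-fold at 240 min, and at 480 min EGF was the higher by 1.49-fold. Over the 3 early pairs the difference was -2.45 (SE 0.27) with an adjusted p = 0.0844, and over all 6 pairs -1.41 (SE 0.41, adjusted p = 0.135). No gene passed in the early comparison (0% of 7731, limma). Without either array of 480 min the early ATF3 difference passed (-2.45, adjusted p = 0.0069). That difference was unchanged, and its SE, which shares the spread of the late pairs, was 0.11. Without either array of another time it did not pass. Its adjusted p was then 0.175 for 20 min, 0.364 for 40 min, 0.362 for 60 min, 0.0811 for 120 min and 0.194 for 240 min.

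**Figure D1:**
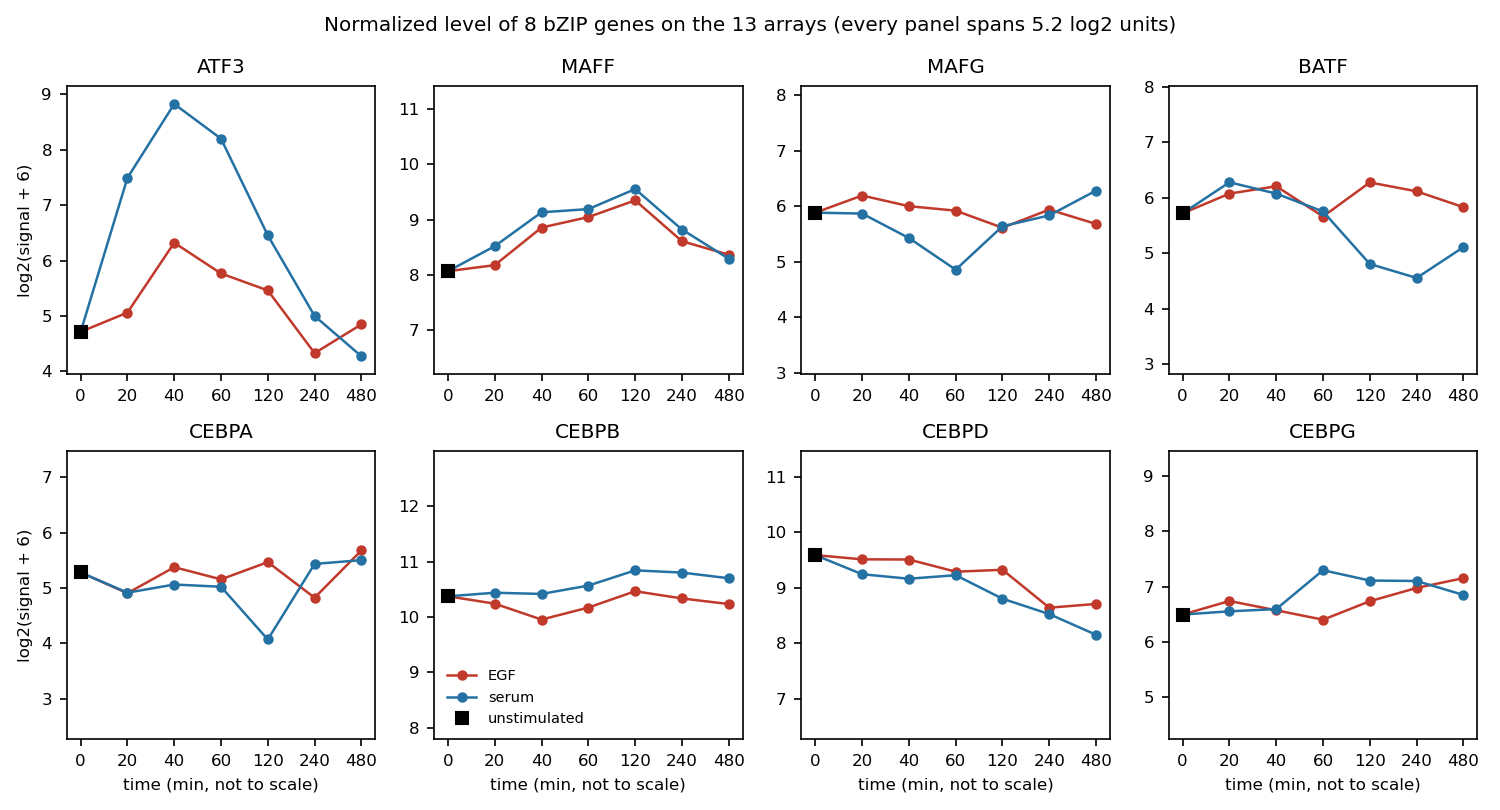
Normalized level, log2(signal + 6), of the 8 measured bZIP genes on the 13 arrays against time in minutes (evenly spaced, not to scale), with EGF in red, serum in blue and the shared unstimulated array as a black square at time 0. Every panel spans the same number of log2 units; ATF3 covers most of its panel with serum well above EGF, MAFF follows nearly one course in both stimuli, and BATF separates from 120 min on.

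MAFF, the inducible member of the small MAF group, was highest later than ATF3, and its courses after EGF and serum lay close together. Its signal was 266.8 unstimulated and 280.5, 453.5, 520.7, 640.1, 394.5 and 332.3 from 20 to 480 min after EGF. After serum it was 356.1, 560.5, 578.6, 738.3, 450.6 and 306.2. All 12 stimulated arrays lay above the unstimulated one. Those 12 differences share 1 unstimulated array, and the share of all genes so placed was not counted. Both courses were highest at 120 min, at 2.42-fold after EGF and 2.79-fold after serum. By 480 min the folds were 1.23 after EGF and 1.17 after serum.

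With the EGF and serum arrays of a time averaged and set against the unstimulated array, MAFF differed by 0.92 at 40 min (SE 0.17, limma adjusted p = 0.221). At 60 min the difference was 1.05 (SE 0.17, adjusted p = 0.172), and at 120 min it reached 1.38 (SE 0.17, adjusted p = 0.0673). None of these passed. Under robust variances with a variance trend the value of 120 min did, at an adjusted p = 0.00063, as did those of 40 min (0.0235) and 60 min (0.00709). Over the 6 pairs EGF minus serum was -0.18 (SE 0.08, 95% interval -0.37 to 0.00, adjusted p = 0.242), and EGF was lower in 5 of 6. Its late-minus-early difference was 0.01 (SE 0.25, adjusted p = 0.983), with the peak in the first late pair: late arrays had 640.1, 394.5 and 332.3 in EGF, and early ones 280.5, 453.5 and 520.7.

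The dimmer MAFF probe set had smaller changes, and after serum an earlier peak. It stood at 105.8 unstimulated and between 93.7 and 169.3 after EGF, with its highest value at 120 min, and between 114.0 and 151.5 after serum, with its highest value at 40 min. Its largest changes were 0.72 in EGF and 0.61 in serum on the log2 scale, against 1.28 and 1.48 for the brighter probe set.

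MAFG, a small MAF protein that pairs with NRF2 and related factors, did not share the MAFF course. Its signal was 58.8 unstimulated and 68.3, 58.5, 55.2, 43.0, 54.2 and 43.5 from 20 to 480 min after EGF. After serum it was 58.9, 35.6, 23.1, 43.5, 47.7 and 67.8. The serum array of 60 min was the lowest of all, 2.09-fold below EGF at that time, and on the normalized scale the early EGF arrays lay above the early serum arrays without overlap, though EGF at 60 min was under serum at 20 min in signal as deposited. EGF minus serum over the early pairs was 0.65 (SE 0.19, adjusted p = 0.234). The late-minus-early difference within serum was 0.54 (SE 0.24, adjusted p = 0.237), and its difference between the stimuli -0.83 (SE 0.27, adjusted p = 0.374).

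**Figure D2:**
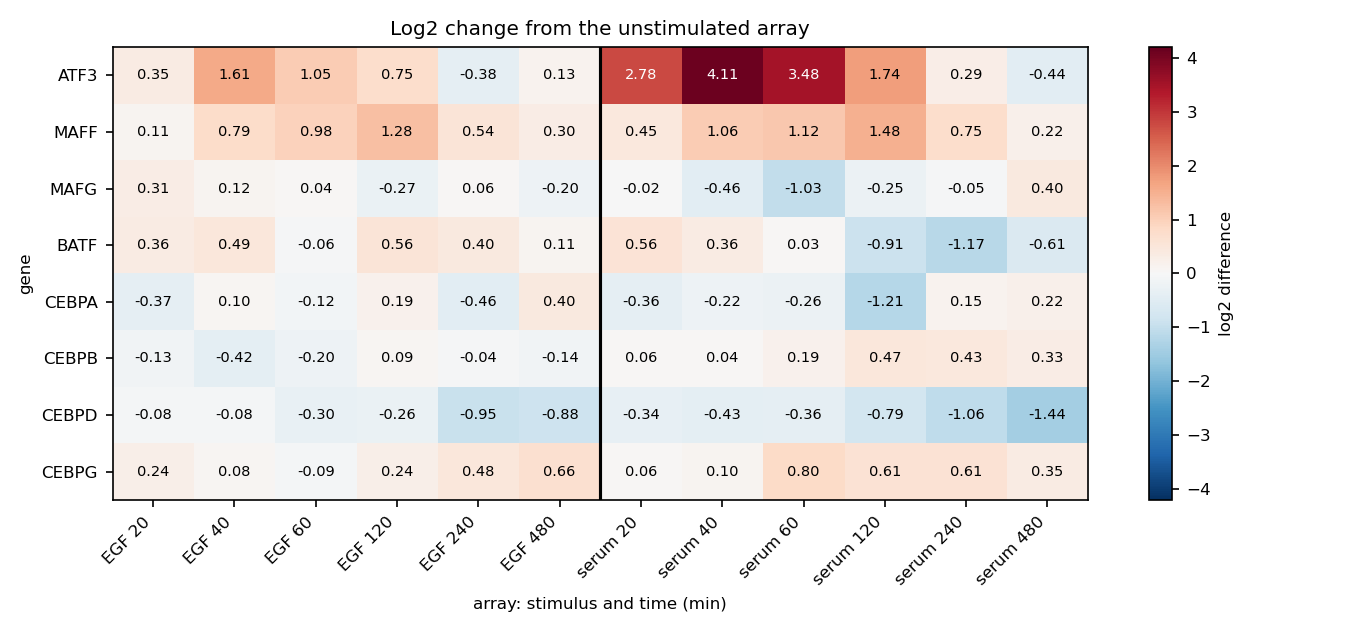
Log2 change from the unstimulated array for the 8 genes (rows) on the 12 stimulated arrays (columns, stimulus and minutes), with the value printed in each cell, red for higher and blue for lower. ATF3 in serum at 20 to 120 min holds the highest values, and CEBPD is below the unstimulated array on all 12.

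At least 2-fold above the unstimulated array stood ATF3 on 6 arrays (EGF at 40 and 60 min, serum at 20, 40, 60 and 120 min) and MAFF on 4 (EGF at 120 min, serum at 40, 60 and 120 min). Of all genes, 1.02%, 1.25%, 1.37%, 1.99%, 1.33% and 1.51% stood that high from 20 to 480 min after EGF, and 1.63%, 1.71%, 2.33%, 2.38%, 2.28% and 1.95% after serum. At least 2-fold below it stood MAFG after serum at 60 min, CEBPA after serum at 120 min, BATF after serum at 240 min and CEBPD after serum at 240 and 480 min. Of all genes, 0.996%, 1.55%, 1.27%, 2.13%, 1.8% and 2.22% stood that low from 20 to 480 min after EGF, and 1.73%, 1.6%, 1.86%, 2.2%, 2.51% and 3.08% after serum. Those are differences of single arrays and have no replicate check. None of the 48 tests of the 8 genes against the unstimulated array passed (limma, lowest adjusted p = 0.0673), while 9 had an unadjusted p under 0.05, and 5 passed with robust variances and a variance trend. Those 9 belonged to ATF3, MAFF and CEBPD and all used the same unstimulated array. The share of all genes at that unadjusted p was not counted. In the main fit few genes of any kind passed: 0.0259%, 0.0776%, 0.0776%, 0.0259%, 0% and 0% of those tested at 20, 40, 60, 120, 240 and 480 min. With robust variances and a variance trend 0.0647%, 0.259%, 0.375%, 0.349%, 0.466% and 0.595% passed at those times.

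BATF, which is known chiefly from lymphocytes, where it pairs with JUN proteins, split the stimuli late. Its signal was 51.9 unstimulated and 62.2, 68.3, 44.8, 71.2, 62.4 and 49.3 from 20 to 480 min after EGF. After serum it was 77.5, 60.3 and 46.9 in the first hour and 22.1, 16.2 and 26.6 from 120 min on. The 3 late serum arrays were the lowest of the 13, below the unstimulated array by 1.88-fold, 2.24-fold and 1.53-fold, and they overlapped neither the early serum arrays nor the late EGF arrays (no such overlap, in the same direction, for 12.6% and 11.7% of all genes).

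Within serum BATF fell 2.32-fold from early to late arrays (log2 difference -1.21, SE 0.20, n = 3 each, limma adjusted p = 0.0247). Late in the course it was higher in EGF than in serum by 2.38-fold (1.25, SE 0.18, adjusted p = 0.0421), while over the early pairs the difference was -0.05 (SE 0.18). The late-minus-early values differed between the stimuli by 1.31 (SE 0.25), which did not pass (adjusted p = 0.228). Over all 6 pairs EGF minus serum was 0.60 (SE 0.26, adjusted p = 0.246), and late minus early over both stimuli was -0.56 (SE 0.14, adjusted p = 0.0539). Without EGF at 60 min the last of these passed (-0.64, adjusted p = 0.0428), in 1 of 12 omissions. In the others it did not pass, with an adjusted p of up to 0.125.

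The BATF calls were close to the threshold, and its late serum signals of 16.2 to 26.6 were low. Its late EGF-minus-serum call was lost on omission of any 1 of the 12 stimulated arrays, with differences of 1.10 to 1.52 and adjusted p from 0.0694 to 0.143. In every EGF-minus-serum comparison, leaving out either array of a time removes that pair, so the 12 omissions amount to 6 distinct ones. The serum call of BATF was lost without serum at 20 min (-1.09, adjusted p = 0.0739), 40 min (-1.19, 0.0893) or 240 min (-1.08, 0.0862), and without both arrays of 20 min (-1.09, 0.0957). Of the 5 leukocyte markers measured, PTPRC, CD3E and HLA-DRA were under the filter. Late in serum CD14 fell (-1.05, SE 0.21, adjusted p = 0.0405) and LCP1 rose (1.06, SE 0.18, adjusted p = 0.0273), calls lost in 9 and 5 of 12 omissions. The summed signal of the 5 was 168.3 to 209.9 late and 227.8 to 332.7 early in serum. In EGF it was 163.8 to 246.4 late and 252.2 to 274.5 early, where BATF late minus early was 0.09 (SE 0.20). The part of these markers in the BATF values was not tested.

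CEBPD was highest in unstimulated cells and lower late than early. Its signal was 753.5 unstimulated and 723.1, 726.3, 618.1, 630.1, 401.7 and 422.9 from 20 to 480 min after EGF. After serum it was 589.7, 573.3, 593.2, 436.0, 362.2 and 277.2. All 12 stimulated arrays lay below the unstimulated one. Those 12 differences share 1 unstimulated array, and the share of all genes so placed was not counted. By 480 min the level was 1.84-fold lower after EGF and 2.71-fold lower after serum. Over both stimuli it fell 1.55-fold from early to late arrays (log2 difference -0.63, SE 0.14, n = 6 each, limma adjusted p = 0.0366). The same contrast gave -0.55 in EGF (SE 0.20, adjusted p = 0.247) and -0.72 in serum (SE 0.20, adjusted p = 0.0846). The serum value passed with robust variances and a variance trend (0.0252), with the stricter filter (0.0468) and with the mean of both probe sets (-0.93, 0.0352).

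Against the unstimulated array the CEBPD difference was -1.01 at 240 min (SE 0.20, adjusted p = 0.224). It was -1.16 at 480 min (SE 0.20, adjusted p = 0.183). Both passed with robust variances and a variance trend (0.0213 and 0.0119). In each of the 6 pairs EGF was above serum, by 0.06 to 0.56, with a mean of 0.31 (SE 0.09, adjusted p = 0.138). Genes higher in EGF in all 6 pairs made up 6.07% of those tested. With the mean of both CEBPD probe sets the difference was 0.12 (SE 0.15, adjusted p = 0.708). In the late pairs the difference was 0.40 (SE 0.13, adjusted p = 0.176).

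The late-minus-early call of CEBPD was lost without any of 9 arrays: EGF at 20 min (-0.61, adjusted p = 0.0699), 40 min (-0.61, 0.0875), 240 min (-0.57, 0.0801) or 480 min (-0.59, 0.0838), or serum at 20 min (-0.62, 0.066), 40 min (-0.64, 0.0796), 60 min (-0.63, 0.0708), 240 min (-0.64, 0.0727) or 480 min (-0.55, 0.0618). Omitting both arrays of 20 min ended it too (-0.61, 0.108). A dimmer CEBPD probe set, with signals of 5.1 to 35.7 and a mean under the filter, differed early: from 20 to 60 min it was at 16.5, 25.7 and 21.8 after EGF and at 32.2, 29.6 and 35.7 after serum, against 20.9 unstimulated. EGF was thus below serum in all 3 early pairs, the opposite order to the brighter probe set. It was below that level on all 6 late arrays, at 20.2, 8.3 and 15.0 after EGF and 5.1, 14.5 and 13.3 after serum.

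**Figure D3:**
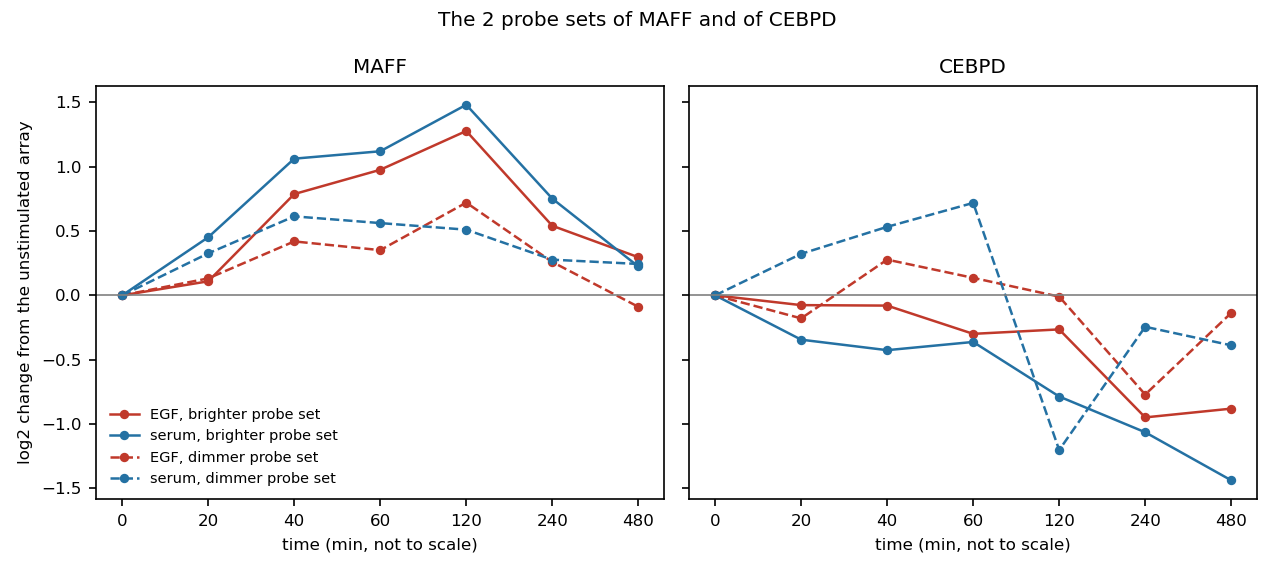
Log2 change from the unstimulated array for both probe sets of MAFF (left) and CEBPD (right) against time in minutes (not to scale), EGF in red and serum in blue, with solid lines for the brighter and dashed lines for the dimmer probe set. The MAFF probe sets differ in size and, after serum, in the time of the peak. Those of CEBPD differ in sign in the first hour after serum and at 40 and 60 min after EGF, and are both at or below the unstimulated level late.

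CEBPB, which drives inflammatory and mammary differentiation genes, lay lower after EGF than after serum at every time, by a small margin. Its signal was 1247.0 unstimulated and 1221.3, 993.8, 1147.1, 1398.3, 1269.6 and 1207.3 from 20 to 480 min after EGF. After serum it was 1328.7, 1407.4, 1559.0, 1884.3, 1865.5 and 1705.4. All 6 serum arrays were above the unstimulated one, and 5 of 6 EGF arrays were below it on the normalized scale, EGF at 120 min being the exception.

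The CEBPB difference between EGF and serum was negative in 6 of 6 pairs, from -0.47 to -0.20, with a mean of -0.39 or 1.31-fold (SE 0.07, 95% interval -0.56 to -0.23, adjusted p = 0.0665). Genes lower in EGF in all 6 pairs made up 6.89% of those tested. It did not pass here, but did with an offset of 24 (0.0381), with the stricter filter (0.0246) and with robust variances and a variance trend (0.00328), each time at a difference of -0.39. The early pairs gave -0.35 (SE 0.10, adjusted p = 0.232) and the late pairs -0.44 (SE 0.10, adjusted p = 0.101). Late minus early was 0.26 over both stimuli (SE 0.08, adjusted p = 0.0759), 0.22 in EGF (SE 0.11, adjusted p = 0.374) and 0.31 in serum (SE 0.11, adjusted p = 0.153).

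**Figure D4:**
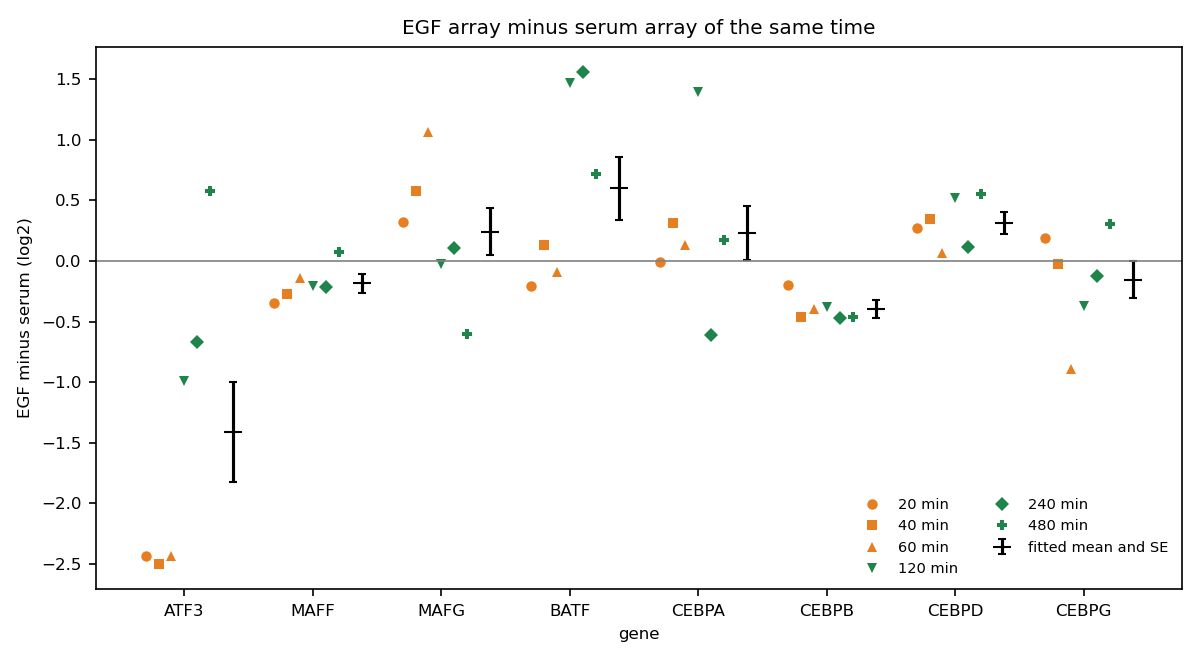
Difference between the EGF and the serum array of the same time (log2) for each gene, with orange symbols for 20, 40 and 60 min and green symbols for 120, 240 and 480 min, and in black the fitted mean over the 6 pairs with its SE. The 6 CEBPB points lie below 0 and the 6 CEBPD points above it; the early ATF3 points lie near -2.5 and the late BATF points above 0.7.

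CEBPG, which pairs with other C/EBP factors and with ATF4, had its higher values late after EGF and from 60 min on after serum, and passed no test. Its signal ran from 79.2 to 138.4 after EGF, lowest at 60 min and highest at 480 min, and from 88.9 to 149.3 after serum, lowest at 40 min and highest at 60 min, against 89.9 unstimulated. It was above the unstimulated array, shared by all these differences, on 11 of 12 arrays on the normalized scale, and the share of all genes so placed was not counted. Late minus early was 0.29 (SE 0.14, adjusted p = 0.226).

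CEBPA, a factor of liver, fat and myeloid differentiation, passed no test either. Its signal was 20.8 to 43.3 after EGF and 11.1 to 36.5 after serum, against 36.7 unstimulated, and the lowest value, after serum at 120 min, was far below the next, 20.8 after EGF at 240 min. Its adjusted p was 0.587 or more in each of the 7 comparisons between phases or stimuli.

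Counted over the 8 genes, 0 were higher and 2 lower late than early over both stimuli (ATF3 and CEBPD), where 1.68% of all genes were higher and 1.79% lower (3.47% in either direction). The median of the 8 was 0.05, against 0.02 over all genes. Within serum the count was 0 higher and 2 lower (ATF3 and BATF), where 0.698% of all genes were higher and 0.634% lower (1.33% in either direction), with medians of -0.03 for the 8 and 0.01 for all. Within EGF none passed (limma, 0 of 8, 1 at an unadjusted p under 0.05 and 0 with robust variances and a variance trend), where 0.246% of all genes did. The interaction passed for none of the 8 either (3 at an unadjusted p under 0.05, 1 with robust variances and a variance trend, ATF3), against 0.0259% of all genes. With robust variances and a variance trend 0.893% of all genes passed within EGF and 0.905% in the interaction. The share of all genes at an unadjusted p under 0.05 was not counted for any comparison.

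Late serum arrays lay below early ones without overlap for ATF3, BATF and CEBPD, as for 12.6% of all genes, and above them for CEBPB, as for 13.5%. No member separated in this way within EGF, where 10.9% of all genes were higher and 9.62% lower. EGF minus serum over all pairs passed for 0 of 8 (4 at an unadjusted p under 0.05, 2 with robust variances and a variance trend), where 0.0129% of all genes were higher and 0.116% lower (0.129% in either direction). In its early part 0 of 8 passed (3 and 2 by the same counts), and in its late part 1 was higher, BATF, where 0.246% of all genes were higher and 0.504% lower (0.75% in either direction). With robust variances and a variance trend 5.55% of all genes passed over all pairs and 2.3% in the early part. Without overlap, the early EGF arrays lay below the early serum arrays for ATF3 and CEBPB (11.4% of all genes) and above them for MAFG and CEBPD (10.2%). The late EGF arrays lay above the late serum arrays for BATF (11.7%) and below them for CEBPB (10.8%).

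**Figure D5:**
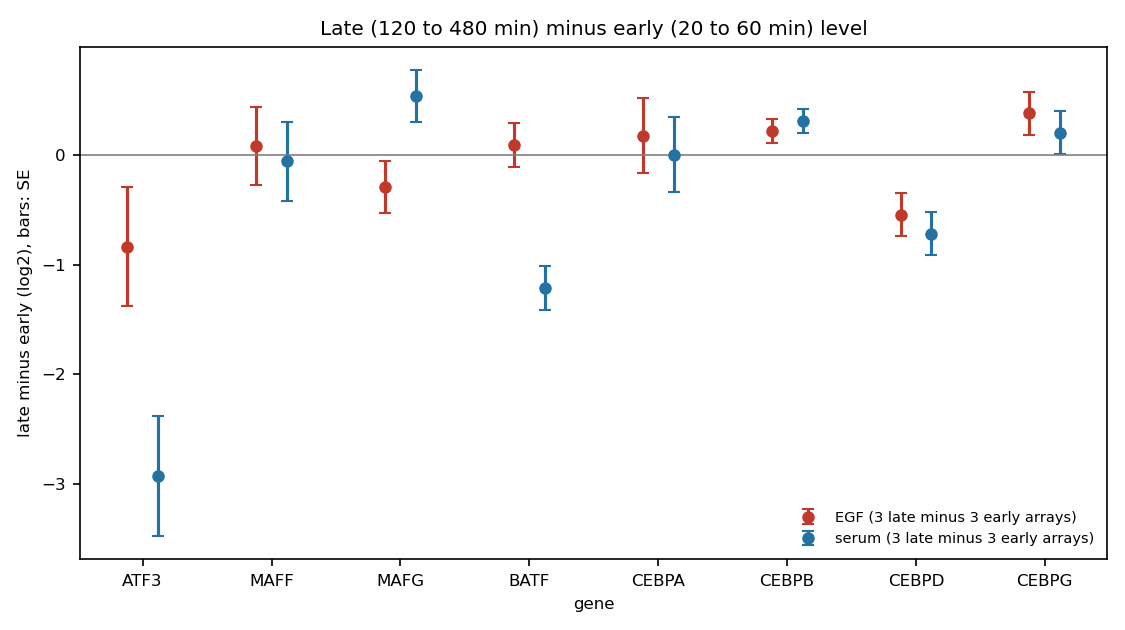
Late minus early difference (log2) of each gene within EGF (red) and within serum (blue), 3 late against 3 early arrays, with bars for the SE of the fit. ATF3 and BATF in serum passed the test, at -2.93 and -1.21; CEBPD is below 0 in both stimuli and MAFF near 0 in both.

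Genes with the course most like that of a member were sought for the 3 members spanning at least 1.5 log2 units, by the mean absolute difference in log2 change over the 12 stimulated arrays. Nearest to ATF3 were NR4A1 (0.46), an orphan nuclear receptor, PTGER4 (0.63), a prostaglandin receptor, and ZFP36 (0.71), an mRNA decay factor, against a median of 1.46 over all genes. NR4A1 peaked at 1.92 in EGF and 3.04 in serum, and PTGER4 at 1.86 in EGF and 3.28 in serum. ZFP36 peaked at 1.61 in EGF and only 1.98 in serum, where ATF3 peaked at 1.61 in EGF and 4.11 in serum. Nearest to BATF were PLLP (0.25), EXTL2 (0.25) and B3GALT4 (0.26), against a median of 0.54, and nearest to CEBPA were PAK6 (0.20), ACOT8 (0.21) and MBD1 (0.21), against a median of 0.42.

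Of the other bZIP genes, 27 of 44 listed were tested. Late minus early passed for 0 higher and 3 lower, where 1.68% of all genes were higher and 1.79% lower, and the median was -0.09 against 0.02 over all genes. They were NFIL3, a repressor related to the C/EBP factors (-0.91, SE 0.15, adjusted p = 0.0182), and the AP-1 subunits FOS (-2.58, SE 0.58, adjusted p = 0.0388) and FOSB, whose difference was -2.58 (SE 0.51, adjusted p = 0.0254). On omission of 1 of the 12 stimulated arrays the NFIL3 call was lost without serum at 40 min (adjusted p = 0.0502), the FOS call in 9 cases (up to 0.0931) and the FOSB call in 6 (up to 0.0706). Within serum FOSB passed alone (-3.81, SE 0.72, adjusted p = 0.0347; lost in 7 omissions, up to 0.117), and in EGF minus serum none of the 27 passed early, late or over all pairs.

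Genes known as targets of C/EBP factors in inflammation and the acute phase numbered 16 tested of 22. Against the unstimulated array 1 of the 16 passed, PTGS2, the inducible cyclooxygenase, at 40 min (3.10, SE 0.32, adjusted p = 0.024) and at 60 min with 3.25 (SE 0.32, adjusted p = 0.017). These calls were lost in 6 omissions (adjusted p up to 0.162) and 3 omissions (up to 0.0802). Late minus early passed for 0 higher and 2 lower (1.68% and 1.79% of all genes, list median -0.14), the chemokine CXCL2 (-2.00, SE 0.19, adjusted p = 0.00294), which also passed in EGF alone (-1.75) and serum alone (-2.25), and the protease inhibitor SERPINA3 (-0.59, SE 0.12, adjusted p = 0.0331). The CXCL2 calls over both stimuli and in serum held in all 12 omissions, the one in EGF was lost in 6 (up to 0.151), and that of SERPINA3 was lost without any array but those of 120 min (up to 0.0788). In the late EGF-minus-serum comparison 2 were higher and 0 lower, where 0.246% of all genes were higher and 0.504% lower (list median -0.06, all genes 0.01): CXCL8 (1.48, SE 0.21, adjusted p = 0.0439) and IL1B (1.05, SE 0.16, adjusted p = 0.0452), both secreted inflammatory mediators. In that comparison no gene of any kind passed when the EGF or the serum array of 240 min was left out, and 2 did when either array of 480 min was. The CXCL8 call was lost in 8 of 12 omissions (adjusted p up to 0.171) and the IL1B call in all 12 (0.0597 to 0.164). Of 11 genes of cytokine, STAT3 and glucocorticoid receptor signalling 9 were tested, and STAT3 alone passed, lower late (-0.31, SE 0.07, adjusted p = 0.0454, list median -0.08). That call was lost without any array but those of 120 min (up to 0.103).

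Antioxidant genes that NRF2 and small MAF dimers are known to drive numbered 11 tested of 16. GCLM, a subunit of the enzyme that starts glutathione synthesis, was higher late (0.60, SE 0.13, adjusted p = 0.0343; 1 higher, 0 lower, median 0.03, against 1.68% and 1.79% of all genes). That call was lost without any array but those of 120 min (adjusted p up to 0.0878). The cystine carrier SLC7A11 was higher late in EGF than in serum (1.36, SE 0.18, adjusted p = 0.0341; 1 higher, 0 lower, median 0.48 against 0.01 over all genes, of which 0.246% were higher and 0.504% lower). It was lost on omission of any 1 of the 12 arrays (adjusted p 0.0527 to 0.146).

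Stress genes linked to ATF3 and ATF4 numbered 12 tested of 15, ATF3 itself among them. Late minus early passed for 1 higher, the pseudokinase TRIB3 (0.66, SE 0.14, adjusted p = 0.0335), and 1 lower, ATF3 (median -0.01), where 1.68% of all genes were higher and 1.79% lower. Within EGF TRIB3 rose by 1.41 (SE 0.20, adjusted p = 0.0201). The TRIB3 calls were lost in 9 omissions (adjusted p up to 0.0826) and, in EGF, without EGF at 20, 40, 240 or 480 min (up to 0.13). Late in EGF minus serum 2 were higher, TRIB3 (1.56, SE 0.16, adjusted p = 0.0202) and VEGFA (1.26, SE 0.15, adjusted p = 0.0246). In that comparison 3 were lower: GADD45B (-1.99, SE 0.21, adjusted p = 0.0202), ID1 (-1.44, SE 0.11, adjusted p = 0.00688) and DDIT4 (-0.76, SE 0.11, adjusted p = 0.0452), with a list median of -0.04; of all genes 0.246% were higher and 0.504% lower. On omission of any 1 array of 240 or 480 min all 5 calls were lost. In all, TRIB3 was lost in 6 omissions (adjusted p up to 0.129), VEGFA in 8 (0.135), GADD45B in 8 (0.129), ID1 in 4 (0.0814) and DDIT4 in all 12 (0.171).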

How the data were processed

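RNA from 13 MCF10A cultures was measured on 1 Affymetrix array each. Each probe set has 1 deposited intensity per array, which the authors computed with MAS5, per the submitters' processing notes, in a version not given here. Trimmed means (2% at each end) were 150.04 to 150.05 on every array.

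Values were transformed to log2(signal + 6), then normalized between arrays by quantiles (limma 3.58.1, R 4.3.3). The 22277 probe sets held 62 controls, and 19064 had a single gene symbol, 1043 more than 1 and 2108 no name here; names came from the platform annotation, and 19052 matched RefSeq (GRCh38.p14) by Entrez number. Each of 11963 genes took its brightest probe set, and those with a mean of at least 4.68, the 40th percentile, were tested. Times against the unstimulated array were fitted with time and stimulus as additive terms, late minus early as means of stimulus and phase, and EGF minus serum with time as a block (lmFit, eBayes, Benjamini-Hochberg). The fits were tested on simulated data. Members, lists and tests were chosen with earlier results of these data known. All 8 measured members were named, with list members past the threshold. Figures used Python 3.11.15 and matplotlib 3.10.9.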

Additional observations from a re-analysis of the deposited data

How the results depend on the processing

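Of 34 tests of single members, most but not all of them given above, none reversed in 678 combinations with an alternative. Of these combinations, 602 stayed on the same side of the threshold, 49 lost a call and 27 gained one. Only the 5 tests called in the main fit could lose a call, and all 49 losses were theirs. Late minus early lost its call in 9 of 20 alternatives for ATF3 and 11 of 21 for CEBPD. Within serum the loss was 9 of 20 for ATF3 and 5 of 20 for BATF. For BATF in late EGF minus serum it was 15 of 19. Some tests given above were not among the 34, such as MAFF late minus early (0.01) and BATF EGF minus serum early (-0.05). Tests of list genes and markers were not among them either. With robust variances and a variance trend, the number of the 8 genes called became 1 each at 40, 60 and 120 min (MAFF) and 1 each at 240 and 480 min (CEBPD), in place of 0. With that fit it became 4 for late minus early (main count 2), 1 for the difference between the stimuli in late minus early (0), 2 for EGF minus serum (0), 2 for its early part (0) and 3 for its late part (1), and late minus early in serum had 3 (2), with CEBPD gained. With an offset of 24 the counts became 1 at 120 min, 1 for EGF minus serum and 1 for its early part; with no offset the late part had 0. The stricter filter on dim genes, which dropped ATF3, MAFG, BATF and CEBPA from the tests, gave 1 at 120 min, 1 for EGF minus serum and 1 for late minus early in serum. Without a filter late minus early had 0, its serum part 0 and late EGF minus serum 0. With both arrays of 20 min left out these had 1, 0 and 0, and with time as a factor late minus early had 1, CEBPD, the ATF3 call ending at an adjusted p = 0.0642. Under single-array omissions the counts ran from 0 to 2 for late minus early, 0 to 2 for its serum part, 0 to 1 for early EGF minus serum and 0 to 0 for its late part. Over all genes tested, robust variances and a variance trend gave 647 calls for late minus early (main count 268), 414 for its serum part (103), 69 for its EGF part (19), 70 for its difference between stimuli (2), 429 for EGF minus serum (10), 178 for its early part (0) and 555 for its late part (58). Late minus early, its serum part, EGF minus serum and its late part had 575, 290, 228 and 286 with the stricter filter, and 67, 10, 1 and 1 with no filter. From 20 to 480 min against the unstimulated array, the fit with robust variances gave 5, 20, 29, 27, 36 and 46 (main counts 2, 6, 6, 2, 0 and 0). With an offset of 24 the serum part had 199, EGF minus serum 157 and its late part 167. Without both arrays of 20 min late minus early had 71, and with time as a factor 148. Over single-array omissions, calls among all genes ran from 56 (without serum at 40 min) to 438 (without serum at 120 min) for late minus early, from 9 to 207 for its serum part (the same arrays), from 1 to 28 for its EGF part, from 1 to 29 for EGF minus serum and from 0 (without either array of 240 min) to 44 for its late part. EGF and serum arrays were paired by time, with time as the block, so omitting either array of a time gave the same EGF-minus-serum result. The labels give no replicate numbers for another block. Detection calls were not used here, so whether ATF3, BATF and CEBPA lay above background on a given array was not tested. The cause of the changes was not tested.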
